A study of Mus musculus with 8 samples.

Results

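Lgals2 and Lgals3 encode galectin-2 and galectin-3, and they were the 2 members of the galectin family found among the 712 genes of a deposited table of cell states from mouse embryos. The table gives the centre of each of 42 cell states, which are clusters of single cells, and the 2 genes were taken by name with their values in all 42 states. They had been picked for their levels in these states, so the levels below are a description and carry no test. Galectins are small proteins that bind beta-galactoside sugars on glycoproteins and glycolipids. They are made in the cytosol and leave the cell without a signal peptide, so they act both inside cells and at the cell surface. Galectin-2 has a single type of sugar-binding domain, pairs with itself and is best known from the epithelium of the gut. Galectin-3 joins 1 such domain to a flexible tail rich in proline and glycine, through which it can form larger complexes, and it is also known as the macrophage antigen Mac-2.

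The cells came from wild-type embryos at 5 stages, from embryonic day 6.5 to 8.5, in 8 libraries from 6 pools of embryos. Oocytes of B6D2F1 females had been injected with sperm of B6/CAST F1 males, and the embryos grew in pseudopregnant CD-1 females. The pools held 10 embryos at day 6.5, 9 at day 7.0, 7 and 4 at day 7.5, 10 at day 8.0 and 10 at day 8.5, and the last 2 pools were each split over 2 libraries. Embryos had not been selected, and the outer extraembryonic tissues were kept where possible, so cells of the yolk sac and placental lineages were among those sequenced with 10x 3′ chemistry.

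A state's score for a gene is called its level here. Levels in the table ran from 0 to 1.79 with a median of 0.0507, on a scale the sources used here do not state, so states were compared by subtraction and no fold was computed. No column names a library, so each was taken to pool all libraries, and which libraries or stages feed a state is unknown. This leaves no replicate, no SD and no p-value, and the number of cells and reads behind a level is unknown. States were named from lists of marker genes where the markers allowed it, which gave names ending in "-like" to 38 states and left states 2, 6, 12 and 34 unnamed.

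In GRCm38, Lgals2 (ENSMUSG00000043501.5) spans bases 78850860 to 78855529 of chromosome 15 on the minus strand, with 1 annotated transcript of 4 exons. Lgals3 (ENSMUSG00000050335.17) spans bases 47367751 to 47386160 of chromosome 14 on the plus strand, with 6 annotated transcripts, the principal one of 6 exons. The stretches upstream of the 2 RefSeq starts are shown as a description, and no link between sequence and level was tested. They differed in base composition. They also differed in the short motifs found, but the motifs were chosen with the sequences in view. Both are from RefSeq (GRCm38.p6) and are written 5′ to 3′ on the strand of the gene. The Lgals2 stretch is chr15:78855530-78855779, minus strand, from position -250 to -1 relative to the start. The Lgals3 stretch is chr14:47373610-47373812, plus strand, from position -250 to -48, and ends where annotated exons begin. It lies inside the annotated span of Lgals3, downstream of the annotated gene start at base 47367751, so it is not upstream of every annotated transcript. Capitals mark the matches to the motifs named in the next paragraph.
Lgals2: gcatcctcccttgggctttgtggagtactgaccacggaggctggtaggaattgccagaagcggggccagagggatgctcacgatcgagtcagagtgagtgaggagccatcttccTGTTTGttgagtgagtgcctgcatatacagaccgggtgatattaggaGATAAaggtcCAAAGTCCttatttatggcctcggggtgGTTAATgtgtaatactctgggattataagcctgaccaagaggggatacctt
Lgals3: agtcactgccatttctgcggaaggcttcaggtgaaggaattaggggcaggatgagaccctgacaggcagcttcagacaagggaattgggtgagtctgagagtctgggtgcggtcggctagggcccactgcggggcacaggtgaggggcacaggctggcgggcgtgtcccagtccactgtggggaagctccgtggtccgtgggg

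The 250 bases before the start of Lgals2 held 50.8% G and C, close to the median of 52.4% over 32851 mouse promoters, and those of Lgals3 held 66%. Motifs were searched on both strands of these 250 bases and were chosen with the sequences in view. In Lgals2, TGTTTG, a core of sites for FOXA factors, lay at -136 to -131 and occurs in 16% of all promoters. GATAA, bound by GATA factors, lay at -89 to -85 and occurs in 22.6%. CAAAGTCC, a form of the site for HNF4, lay at -79 to -72 and occurs in 1.2%. GTTAAT, the half-site of HNF1, lay at -51 to -46 and occurs in 6.43%. All 4 were on the strand of the gene and none overlapped another. In Lgals3, the only match was GGGCGG, the core bound by Sp and Klf factors, on the opposite strand at -7 to -2, outside the stretch shown, and it occurs in 32.7% of promoters. GCCNNNGGC, the site of TFAP2 factors (13.7% of promoters), and TGANTCA, the site of AP-1 (6.75%), were found in neither. A match is a description of the letters and does not show that a factor binds there.

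Lgals2 was high in the 3 visceral endoderm-like states and low elsewhere. Visceral endoderm is the epithelium that covers the early embryo and later lines the yolk sac, where it takes up and secretes nutrients. The level of Lgals2 was 1.26 in state 40, 1.14 in state 29 and 0.754 in state 4. The gut endoderm-like state 7 followed at 0.182 and the parietal endoderm-like state 14 at 0.132. The other 37 states lay between 0.0116 and 0.0824 with a median of 0.0287. The threshold of 0.5 therefore fell in a wide gap, between 0.754 just inside and 0.182 just outside. Of the summed level of Lgals2 over all states, 67.2% lay in these 3 states, where the median gene had 36.4% in its own 3 highest states, and 106 genes had a larger share. Exactly 3 states at 0.5 or above were found for 10.5% of the 712 genes.

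Below the endoderm states, the order of Lgals2 was shallow. The extraembryonic ectoderm-like state 25 stood at 0.0824, the primordial germ cell-like state 27 at 0.0684 and the node and notochord-like state 23 at 0.0510, and 34 states lay under 0.05. The lowest levels were 0.0116 in the epiblast-like state 17 and 0.0181 in the megakaryocyte and leukocyte-like state 36. The differentiated trophoblast-like state 28, where Lgals3 was highest, had 0.0259. Neighbours among these low states differed by small steps with no replicate to set a spread, and their order was not read.

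Lgals3 was highest in the differentiated trophoblast-like state 28. Trophoblast forms the fetal part of the placenta, and its differentiated cells include giant cells and spongiotrophoblast. The level of Lgals3 was 1.09 in state 28. It was 0.309 in state 23 and 0.190 in state 38, both node and notochord-like, and 0.255 in state 25 and 0.235 in state 0, both extraembryonic ectoderm-like. The node and notochord form the axial midline of the embryo, and the extraembryonic ectoderm holds the trophoblast progenitors. State 27, primordial germ cell-like, followed at 0.0968, and the other 36 states lay between 0.00709 and 0.0369 with a median of 0.0156. The threshold of 0.5 fell between 1.09 just inside and 0.309 just outside. State 28 held 39.6% of the summed level of Lgals3, where the median gene had 15.4% in its single highest state, and 76 genes had a larger share. Exactly 1 state at 0.5 or above was found for 27.7% of the genes.

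**Figure D1:**
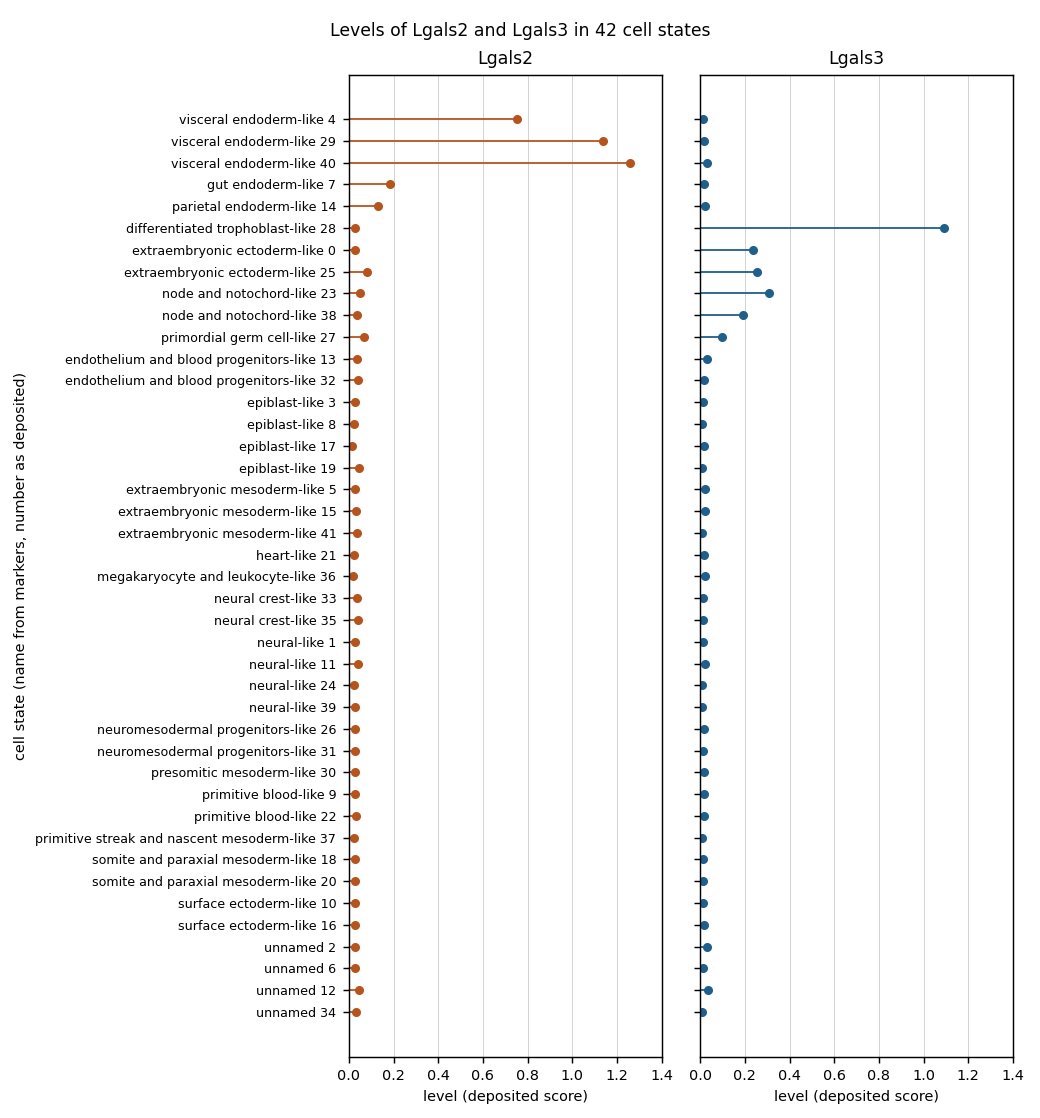
Level of Lgals2 (left) and of Lgals3 (right) on the horizontal axes (deposited score, scale not stated) in each of the 42 cell states on the vertical axis, grouped by name, 1 point per state with no replicate. Lgals2 stands at 0.754 to 1.26 in states 4, 29 and 40 and at 0.182 or lower elsewhere, and Lgals3 stands at 1.09 in state 28 and at 0.309 or lower elsewhere.

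The 2 galectins were high in different states. No state had both at 0.1 or above, and 32 of the 42 had both below 0.1. In the visceral endoderm-like states 4, 29 and 40 Lgals3 was 0.0107, 0.0183 and 0.0281, near its median of 0.0178 over all states. In states 0, 25, 23 and 38 Lgals2 was 0.0252, 0.0824, 0.0510 and 0.0374, beside a median of 0.0292. Across the 42 states Pearson's r between the 2 genes was -0.071 and Spearman's rho was 0.218. This describes states taken to share libraries and carries no p-value. The 2 coefficients differed in sign.

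**Figure D2:**
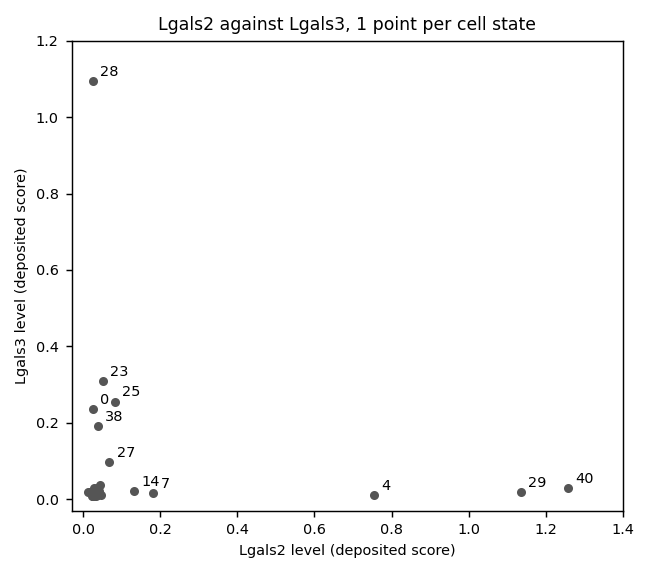
Level of Lgals3 against level of Lgals2 (deposited score on both axes), 1 point per cell state, 42 states. The points follow the 2 axes: states 4, 29 and 40 lie along the Lgals2 axis, state 28 lies along the Lgals3 axis, and no state has both genes at 0.1 or above.

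Mesoderm was named beside visceral endoderm and trophoblast when the 2 genes were picked, and the levels go against that for most mesoderm. In the 8 embryonic mesoderm states, numbered 2, 6, 12, 18, 20, 30, 34 and 37, which include the 4 unnamed states because their best list was a mesoderm list, Lgals3 lay between 0.00709 and 0.0369 and Lgals2 between 0.0246 and 0.0432. In the extraembryonic mesoderm-like states 15 and 41 Lgals3 was 0.0195 and 0.00941. State 5, which took the same name, had 0.0209 and was left out of that class. The mean difference between these 2 states and the 8 embryonic mesoderm states was -0.0028 for Lgals3 and 0.0043 for Lgals2, and neither gene was called, beside 5.9% of the 712 genes called higher and 0.14% called lower. A gene was called in a comparison when the class means differed by 0.5 or more and the states of the 2 classes did not overlap. The axial states 23 and 38 were the exception among states of mesodermal origin.

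Lgals2 separated visceral endoderm-like states from the gut endoderm-like state 7, which shares an epithelial character with them. The mean over states 4, 29 and 40 was 1.05 against 0.182, a difference of 0.867 in level, and 5 of the 712 genes had a larger one. In that comparison 5.06% of genes were called higher in the visceral states and 2.25% lower. Since Lgals2 had been picked for its high visceral levels, nothing is read from its own call. State 7 had 12 of the 15 measured visceral markers at levels below all 3 visceral states, while the endoderm factors Foxa2 and Sox17 were above all 3 and Gata6 lay between. In state 14, 11 of the 15 were below all 3, and Foxa2, Gata4, Gata6 and Sox17 were above. The 15 genes summed to 15.4, 15.7 and 15.9 in states 4, 29 and 40, to 8.6 in state 7, to 6.29 in state 14 and to 1.07 in the lowest state. Transthyretin (Ttr), a carrier of thyroid hormone, was at 1.11 in state 7 against 1.60 to 1.79 in the 3 visceral states. Apolipoprotein Apoa4 was at 0.127 in state 7 against 0.888 to 1.33 in the 3 visceral states. The part of visceral RNA or cells in the Lgals2 level of states 7 and 14 was not tested.

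Against parietal endoderm, the layer that secretes Reichert's membrane, the difference in Lgals2 was 0.917 (1.05 against 0.132), and 10 genes had a larger one. In that comparison 8.15% of genes were called higher in the visceral states and 4.92% lower. Lgals3 differed by 0.0044 from state 7 and by -0.0014 from state 14, so all 3 kinds of endoderm-like state were at the low end of its range. Against all other 39 states, a reference chosen after the levels were seen, the mean of Lgals2 was 1.05 against 0.0394, and 6.18% of genes were called higher in the 3 visceral states.

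The 3 visceral endoderm-like states were not alike in Lgals2. States 29 and 40 differed by 0.122, more than 92.1% of genes did between these states, whose differences had an SD over genes of 0.0746. State 4 was lower than state 29 by 0.382, a larger difference than that of 98.3% of genes, and lower than state 40 by 0.504, larger than that of 97.9%. These SDs are spreads over genes and not over embryos. Of the 44 genes called higher in the 3 states against the other 39, 32 (72.7%) had their lowest level in state 4 and their highest in state 40 with state 29 between, and 27.4% of all genes had this order. Lgals2 was 1 of 9 genes with a level at least 0.5 higher in state 40 than in state 4. The others were the fibrinogen chains Fgb and Fgg, alpha-fetoprotein (Afp), transferrin (Trf), the apolipoprotein Apoa2, the calcium binder S100g, Fxyd2, a regulator of the sodium pump, and Spp2. In the opposite direction 6 genes differed by as much, among them Cyp26a1, which breaks down retinoic acid, and the Wnt inhibitor Sfrp1. Of the 15 visceral markers, 9 were higher in state 40 than in state 4, among them Afp and Apoa4, and 6 were lower, namely Amot, Spink1, Foxa2, Gata4, Gata6 and Sox17.

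**Figure D3:**
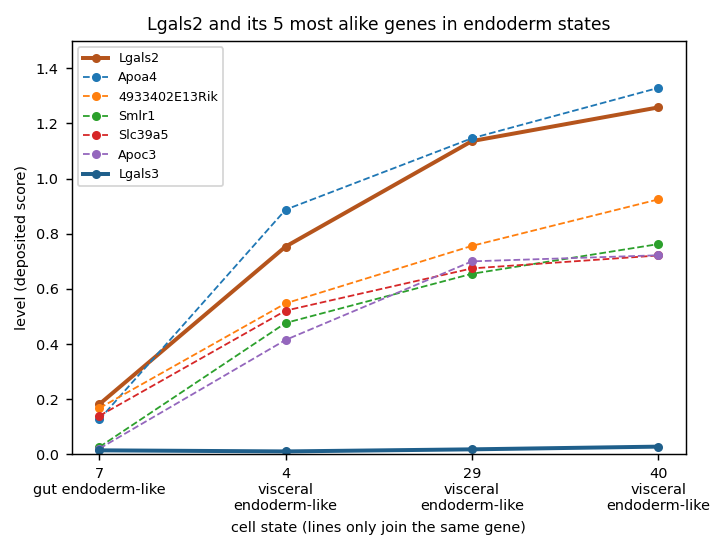
Level (deposited score) of Lgals2, of the 5 genes most like it and of Lgals3 in the gut endoderm-like state 7 and the visceral endoderm-like states 4, 29 and 40, 1 value per state with no replicate, where the lines only join points of a gene. Lgals2 is at 0.182 in state 7, 0.754 in state 4, 1.14 in state 29 and 1.26 in state 40, while Lgals3 stays between 0.0107 and 0.0281.

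Among trophoblast states, the difference in Lgals3 was 0.849 between the differentiated state 28 (1.09) and the mean of the extraembryonic ectoderm-like states 0 and 25 (0.245). Plac1 and Ldoc1 were the only genes of the 712 with a larger difference in this direction. In that comparison 2.39% of genes were called higher in state 28 and 1.4% lower, and Lgals3 had been picked for this pattern, so nothing is read from its call. States 0 and 25 differed from each other by 0.0197 in Lgals3, under their SD over genes of 0.0568. Lgals2 differed by -0.028 between state 28 and states 0 and 25. The 10 measured genes of the differentiated trophoblast list summed to 11.1 in state 28, 5.06 in state 0 and 4.46 in state 25, with 0.479 in the lowest state. Plac1 stood at 1.27 in state 28, 0.141 in state 0 and 0.0433 in state 25. It was not confined to trophoblast, with 0.639 in the extraembryonic mesoderm-like state 5 and 0.475 in the endothelium and blood progenitors-like state 32. The part of differentiated cells among states 0 and 25 was not tested.

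In the node and notochord-like states, Lgals3 averaged 0.25 against 0.0186 over the 32 states outside the visceral endoderm, trophoblast and extraembryonic mesoderm classes, state 5 counted among the 32. The difference of 0.231 was under 0.5 and was not called, beside 4.49% of genes called higher there. The 2 groups did not overlap, since state 38 at 0.190 lay above the highest reference state, state 27, at 0.0968. Of all genes, 8.01% were higher in states 23 and 38 with no overlap at any size, and 104 genes had a larger difference than Lgals3. States 23 and 38 were themselves unlike, with an SD over genes of 0.214, and their difference of 0.119 in Lgals3 exceeded that of 69.7% of genes. Foxj1, which drives motile cilia such as those of the node, was at 1.13 in state 38 and at 0.0926 in state 23. Noto, a factor of the node and notochord, was at 0.944 and 0.512. Lgals3 was thus higher in the state with less of both. Plac1 stood at 0.0492 in state 23 and 0.0580 in state 38, beside 0.141 and 0.0433 in the extraembryonic ectoderm-like states 0 and 25. Elf5, a factor of trophoblast progenitors, was at 0 and 0.0187 in states 23 and 38. Cdx2, on the extraembryonic ectoderm list with Elf5, was at 0.601 and 0.805, beside a mean of 0.586 in states 0 and 25. The 10 measured genes of that list summed to 2.02 and 2.07 in states 23 and 38. They summed to 6.98 and 6.78 in states 0 and 25. The differentiated trophoblast list summed to 1.76 and 2.46 in states 23 and 38, and Phlda2, Plet1, Peg10 and Krt7 were its members above 0.2 in both. The part of trophoblast RNA in these 2 states was not tested.

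**Figure D4:**
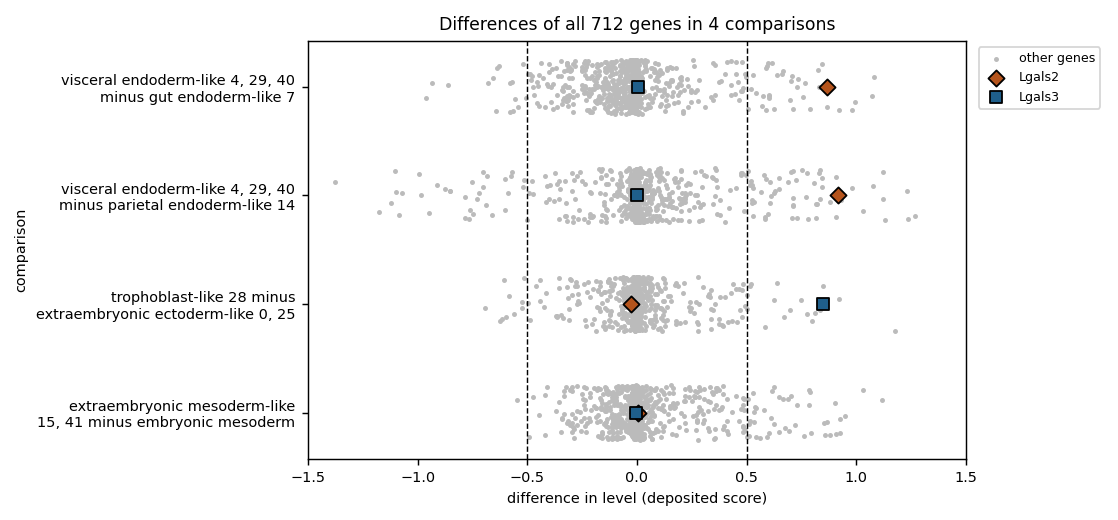
Difference in level (deposited score, first class minus second class) for all 712 genes in 4 comparisons, with Lgals2 as a diamond, Lgals3 as a square, the other genes as grey points spread vertically for legibility, and dashed lines at 0.5 in either direction. Lgals2 lies at 0.867 and 0.917 in the visceral endoderm comparisons, Lgals3 lies at 0.849 in the trophoblast comparison, and both lie near 0 in the mesoderm comparison.

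The 5 states with Lgals3 at 0.1 or above were set against the other 37, a class chosen on Lgals3 itself, whose separation is therefore built in. In Lgals3 the means were 0.417 and 0.0184. Only 1 other gene of the 712, Plet1, was higher in these 5 states with no overlap, which makes 0.281% of genes with the 2 together, and Plet1 alone also reached a difference of 0.5 (0.14% of genes). Plet1 encodes a surface protein of placental and other epithelia. It is on the trophoblast list that names state 28. Its levels were 1.21 in state 28, 0.920 in state 38, 0.445 in state 0, 0.416 in state 25 and 0.246 in state 23, and its highest level elsewhere was 0.170 in state 7. The 2 genes ordered the node states oppositely, since Plet1 was higher in state 38 and Lgals3 in state 23.

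The genes most like Lgals2 across the 42 states were, by Pearson's r, Apoa4 (0.996), 4933402E13Rik (0.996), Smlr1 (0.995), Slc39a5 (0.995) and Apoc3 (0.994). Apoa4 and Apoc3 are apolipoproteins of lipoprotein particles, and Slc39a5 is a zinc transporter of gut and visceral epithelium. Their mean levels over the 3 visceral states were 1.12, 0.743, 0.631, 0.639 and 0.612. Apoa4 had levels of 0.888, 1.15 and 1.33 in states 4, 29 and 40, the order Lgals2 had. The likeness to Lgals2 rested on the 3 visceral states. In all, 33 genes had r of 0.9 or more with it and 31 did without state 40, but 0 did without states 4, 29 and 40, where the highest r was 0.887 (Apoa4). Of the 4 of these 5 genes with a RefSeq promoter, none held CAAAGTCC or GATAA, beside 1.2% and 22.6% of all promoters. GTTAAT was held by 1 and TGTTTG by 1, beside 6.43% and 16%. A gene counted if any of its promoters matched, while the shares are per promoter.

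The genes most like Lgals3 were Fstl3 (r of 0.951), Fthl17a (0.948), Nfkbiz (0.934), Rgcc (0.931) and Ppard (0.931). Fstl3 binds activin, Nfkbiz regulates NF-kappaB target genes and Ppard is a nuclear receptor for fatty acids. They shared the high level in state 28, at 0.556, 0.877, 0.555, 0.794 and 0.552, and a lower one in states 0 and 25, with means of 0.0716 to 0.164. They did not share the node and notochord levels. In state 23 they stood at 0.0252, 0.00293, 0.0612, 0.0137 and 0.0535, where Lgals3 was 0.309, and in state 38 at 0.0131, 0.00383, 0.0509, 0.00992 and 0.0823, where it was 0.190. Of the 4 with a RefSeq promoter, 3 held GCCNNNGGC and 3 held GGGCGG, beside 13.7% and 32.7% of all promoters. With 4 genes, counted per gene while the shares are per promoter, nothing is read from these counts.

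The likeness of Lgals3 rested on 1 state. In all, 7 genes had r of 0.9 or more with it, and 0 did once state 28 was left out. The most alike over the remaining 41 states were Htra1 (r of 0.844), Plet1 (0.742), Cldn3 (0.683), Shh (0.670) and Gm9 (0.658). The secreted protease Htra1 had a level of 0.0508 in state 28, a mean of 0.636 over states 0 and 25, and levels of 0.321 in state 23 and 0.129 in state 38. Shh, the hedgehog ligand of the notochord, reached 0.983 in state 23 and 0.669 in state 38 but had 0.00439 in state 28. Cldn3, a tight-junction claudin, was highest in states 0 and 25, with a mean of 0.621. Of these 5 genes, Plet1 and Cldn3 were at 0.1 or above in all 5 states where Lgals3 was, and Cldn3 was also at 0.302 in state 16, 0.215 in state 7, 0.164 in state 10 and 0.140 in state 40.

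**Figure D5:**
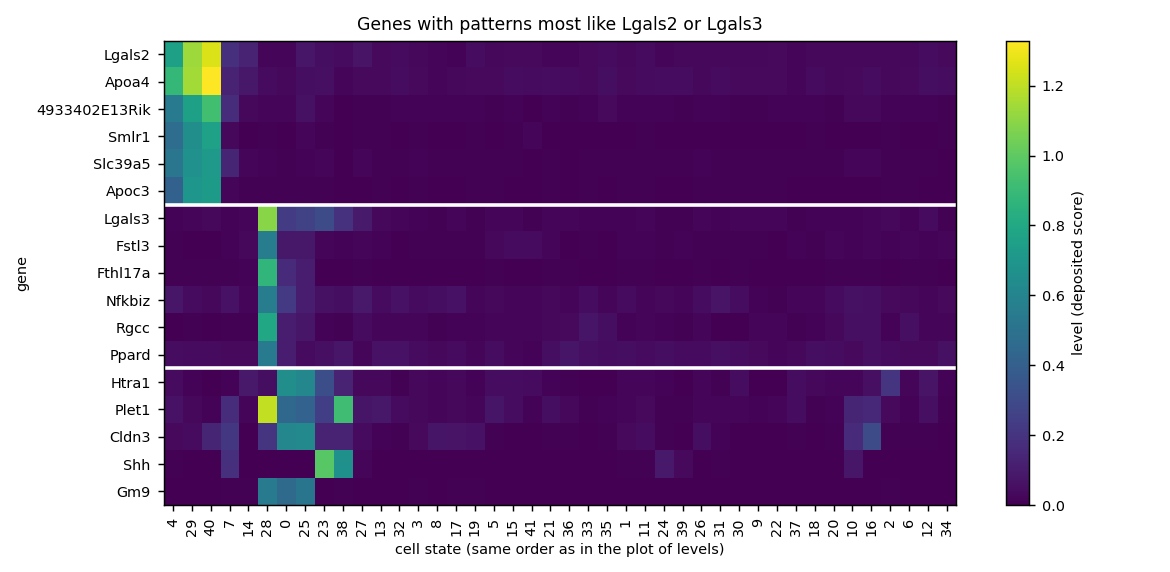
Level (deposited score, colour) in the 42 cell states (columns) of Lgals2 with the 5 genes most like it (top block), of Lgals3 with its 5 (middle block) and of the 5 most like Lgals3 without state 28 (bottom block), 1 value per state. The top block shares high levels in states 4, 29 and 40, and the 5 genes under Lgals3 share state 28 but are under 0.1 in states 23 and 38, where Lgals3 is at 0.309 and 0.190.

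Genes tied to galectins by function were taken from lists, here and below. The lists were chosen with earlier results of these data known, so the counts are a description. Of 12 galectin family genes listed, Lgals2 and Lgals3 were the 2 measured. Another list held 20 genes for galectin partners and for enzymes that branch glycans. Of these, 5 were measured: fibronectin (Fn1), the laminin chains Lama1 and Lamc1, E-cadherin (Cdh1) and Emp2. In the visceral states their mean levels were 0.684, 0.172, 0.261, 0.635 and 0.090. In state 28 they were 0.177, 0.0592, 0.136, 0.285 and 0.0317, and in the node and notochord-like states 0.499, 0.0254, 0.139, 0.443 and 0.127. None of the 5 was called between the visceral states and state 7, beside 5.06% of all genes called higher and 2.25% lower. None was called between state 28 and states 0 and 25, beside 2.39% and 1.4%. Against state 14, 2 were called higher in the visceral states and 2 lower, beside 8.15% and 4.92% of all genes. Fn1 and Cdh1 thus had lower levels in state 28, where Lgals3 was highest, than their means over the node states.

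Of 20 listed genes for other proteins that lack a signal peptide and act at membranes or outside the cell, 5 were measured. The annexin Anxa2 and the calcium binder S100a6 were high in state 28, at 0.861 and 1.02, and stood at means of 0.446 and 0.741 in states 0 and 25. Both were low in the visceral states, at 0.0495 and 0.0418, and in the node states, at 0.161 and 0.0738. S100g was high in endoderm-like states instead, with a mean of 1.25 in the visceral states, and it was at 0.0713 in state 28. Unlike Lgals2 it was also high in the parietal endoderm-like state 14, at 1.04, above its 0.822 in state 4. None of the 5 was called between state 28 and states 0 and 25, beside 2.39% of all genes called higher and 1.4% lower. S100g was the 1 called between the visceral states and state 7, where 5.06% of all genes were called higher and 2.25% lower. Against state 14, 1 of the 5 was called lower in the visceral states, beside 4.92% of all genes. In state 28 against the other 41 states, 2 were called higher, beside 5.06% of all genes. These were S100a6 and the annexin Anxa4, at 0.606 in state 28, and not Anxa2. In states 15 and 41 against embryonic mesoderm, 2 were called higher, beside 5.9%.

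Genes of apical uptake and absorption, the activity for which the visceral epithelium is known, were nearly all high where Lgals2 was. Of 22 listed, 8 were measured, and 6 of the 8 were called higher in the visceral states than in state 7, with a median difference of 0.763 against -0.0194 over all genes. Over all 712 genes 5.06% were called higher in that comparison. Against state 14, 7 of 8 were called higher, beside 8.15% of all genes. The uptake receptor cubilin (Cubn) averaged 1.17 against 0.0939 in state 7, the glucose transporter Slc2a2 0.718 against 0.0191, and the apical scaffold Pdzk1 0.671 against 0.0663. Cubn, Amn and Apob also served to name the visceral states, so their high level there follows in part from the naming.

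Keratins, the intermediate filaments of epithelia, were also counted. Of 14 listed, 12 were measured, and between state 28 and states 0 and 25, 3 were called higher and 1 lower, beside 2.39% and 1.4% of all genes. Krt7 was at 0.915 in state 28 and averaged 0.0804 in states 0 and 25, and Krt19 was at 1.31 and 0.671. In states 23 and 38 Krt19 averaged 1.12, Krt8 1.36 and Krt18 1.29, and 2 keratins were called higher there than in the 32 reference states, beside 4.49% of all genes. Of 16 listed genes of macrophages, the cells in which galectin-3 is best known, 0 were among the 712 genes, so macrophage RNA could not be checked in state 28 or elsewhere. In the megakaryocyte and leukocyte-like state 36 Lgals3 was 0.0194, near its median over all states. That name rested on 3 measured markers, and none of them was a macrophage gene of the list above. The level there therefore says nothing of leukocytes.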

How the data were processed

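The 8 libraries were single-cell RNA sequencing libraries of wild-type mouse embryos. The submitters' processing notes list Cell Ranger, with no version, and the build mm10. The deposited score is the centre of each of 42 states for 712 genes, per the file headers. Normalisation, the treatment of doublets, clustering, the choice of genes and the log base are not given in the sources used here, and the depth behind a score is unknown, so intervals were not computed. The description of 1 day 8.5 library gives day 8.0, and no result depends on it.

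The 2 genes and all lists were chosen with earlier results of these data known. Values were used as deposited. Each gene was standardised over states, and a state took the name of the list with the highest median, out of 22, if that list had 3 or more measured markers, 3 or more of them exceeded 1 SD, and it had 1 or more of the state's 10 leading genes and as many as any other list. Genes were named as members of the 6 fixed groups, as markers that name states, or as the 5 with the highest Pearson r with each galectin. Genes with larger or opposite differences, Plet1 and those most alike without state 28 were named after their values were seen, as were the 3 comparisons with all other states and the motifs. Alternatives covered thresholds of 0.25 and 0.75, centring of states, left-out states and rank correlation. The code, in Python 3.11.15 with pandas 2.3.3, numpy 2.4.6 and scipy 1.17.1, was tested on simulated data. Promoters came from RefSeq and gene positions from GENCODE M21. Protein sequences were not used here.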

Additional observations from a re-analysis of the deposited data

How the results depend on the processing

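No paired analysis was possible because the columns name no library and carry no replicate. Of 85 alternatives, 65 left the value the same and 20 moved it, and none reversed a direction of a called value. All 51 alternatives of the 10 differences in Lgals2 or Lgals3 stayed on the same side of 0.5. With the threshold at 0.25, Lgals3 was past it in 3 states (1 at 0.5). The counts of called genes, both directions together, moved with the threshold, at 0.25 and 0.75 respectively. They were 90 and 7 for state 28 against states 0 and 25 (27 at 0.5), 151 and 15 for the visceral states against state 7 (52), and 157 and 46 against state 14 (93). They were 112 and 16 for extraembryonic against embryonic mesoderm (43), 57 and 6 for the node states (32), and 2 and 0 for the 5 states high in Lgals3 (1). At 0.75 they were 21 for the visceral states against all others (44) and 20 for state 28 against all others (38). The correlation of the 2 genes was 0.218 by Spearman. Of the 10 genes most like Lgals2, Spearman kept 2 and leaving out states 4, 29 and 40 kept 4. Of those most like Lgals3, Spearman kept 2 and leaving out state 28 kept 2. The cause was not tested. Depth per state is unknown, so the order of low levels is not read.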
